A study of Homo sapiens with 4 samples.

Results

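Expression of 45 autophagy and lysosome genes was compared between SH-SY5Y cells treated with sodium nitroprusside (SNP) and untreated SH-SY5Y cells. The genes were chosen by symbol, from the initiation, membrane supply, conjugation, cargo receptor and lysosomal steps of the pathway. All 45 were present among the 58243 genes of the deposited tables. SH-SY5Y is an established human neuroblastoma cell line, and SNP is a compound that releases nitric oxide. The control group held 2 libraries from cells given no agent (control a and control b), and the SNP group held 2 libraries from treated cells (SNP a and SNP b). Per the labels the exposure lasted 8 h, the treatment text speaks of cells differentiated with retinoic acid and of several SNP doses, and no dose is given for the sequenced libraries. The labels call the RNA of treated cells oxidized and describe no step that selected such RNA. They do not say whether the letters a and b stand for separate cultures, so the p-values below measure only the spread between these libraries, which may be technical.

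Total gene counts were 6538701 for control a, 5613144 for control b, 8056550 for SNP a and 7648309 for SNP b. Of 12 markers of adrenergic neuroblastoma cells 11 had counts, and TH was at 0 in all 4 libraries. Their summed level was 3382 and 3460 CPM (counts scaled to a total of 1000000 per library) in control libraries and 2738 and 2878 CPM in SNP libraries. Markers of leukocytes summed to between 1.51 and 2.59 CPM, with PTPRC and TYROBP at 0 in every library, markers of epithelial cells to between 3.49 and 5.49 CPM, and markers of fibroblasts to between 88.4 and 103.7 CPM. The part of these differences in the results below was not tested.

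Macroautophagy encloses cytoplasm in a double membrane, the autophagosome, which then fuses with a lysosome whose hydrolases digest the contents. The ULK1 kinase complex starts the process, the class III PI3-kinase complex makes the lipid PI3P at the site, and ATG9 and ATG2 proteins supply lipid to the growing membrane. A ubiquitin-like conjugation system then attaches ATG8 proteins (the LC3 and GABARAP proteins) to that membrane, where cargo receptors bind them. Neurons depend on autophagy because they do not divide and so cannot dilute damaged proteins and organelles.

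All 45 genes passed the filter on low counts, 44 of them above its limit of 1.41 CPM in every library; the exception was TFEB. A gene was called when its adjusted p-value was under 0.05 by the quasi-likelihood test of edgeR, adjusted by the Benjamini-Hochberg method across the 14759 genes tested. Of the 45 genes, 14 (31.1%) were called, 6 higher and 8 lower in SNP libraries. The background was large: 26.2% of all genes tested were called, 13.6% higher and 12.6% lower, so the share among the 45 lay near it. Their median log2 fold change (SNP over control) was -0.034, with 22 genes above 0 and 23 below, against -0.0042 for all genes tested. In 32 of the 45 genes the groups did not overlap, with both SNP libraries above both controls in 16 and below them in 16; 64.0% of all genes tested had such groups. In TPM, defined below, the number was also 32 (background 63.3%), but with 20 above and 12 below: ULK2, PIK3R4, ATG4C and NBR1 separated, and ULK1, ATG13, ATG7 and TFE3 overlapped. In bulk RNA, fewer cells that express a gene and less of its RNA per cell cannot be told apart.

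The differences ran in both directions within the pathway. The 6 genes that rose were RB1CC1 of the initiation complex, the lipid kinase gene PIK3C3, the cargo receptor genes SQSTM1, OPTN and TAX1BP1, and the lysosomal membrane gene DRAM1. The 8 that fell were ATG9A, ATG2A, ATG10, ATG4D, GABARAP, the cathepsin genes CTSB and CTSD, and the lysosomal channel gene MCOLN1. Calls of GABARAP, SQSTM1, OPTN, TAX1BP1, DRAM1 and MCOLN1 held in all 17 alternative fits that tested them. Each of these genes overlaps exons of another gene, so the fit on genes without exonic overlap did not test them. The other 8 calls were lost in 1 or more fits.

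**Figure D1:**
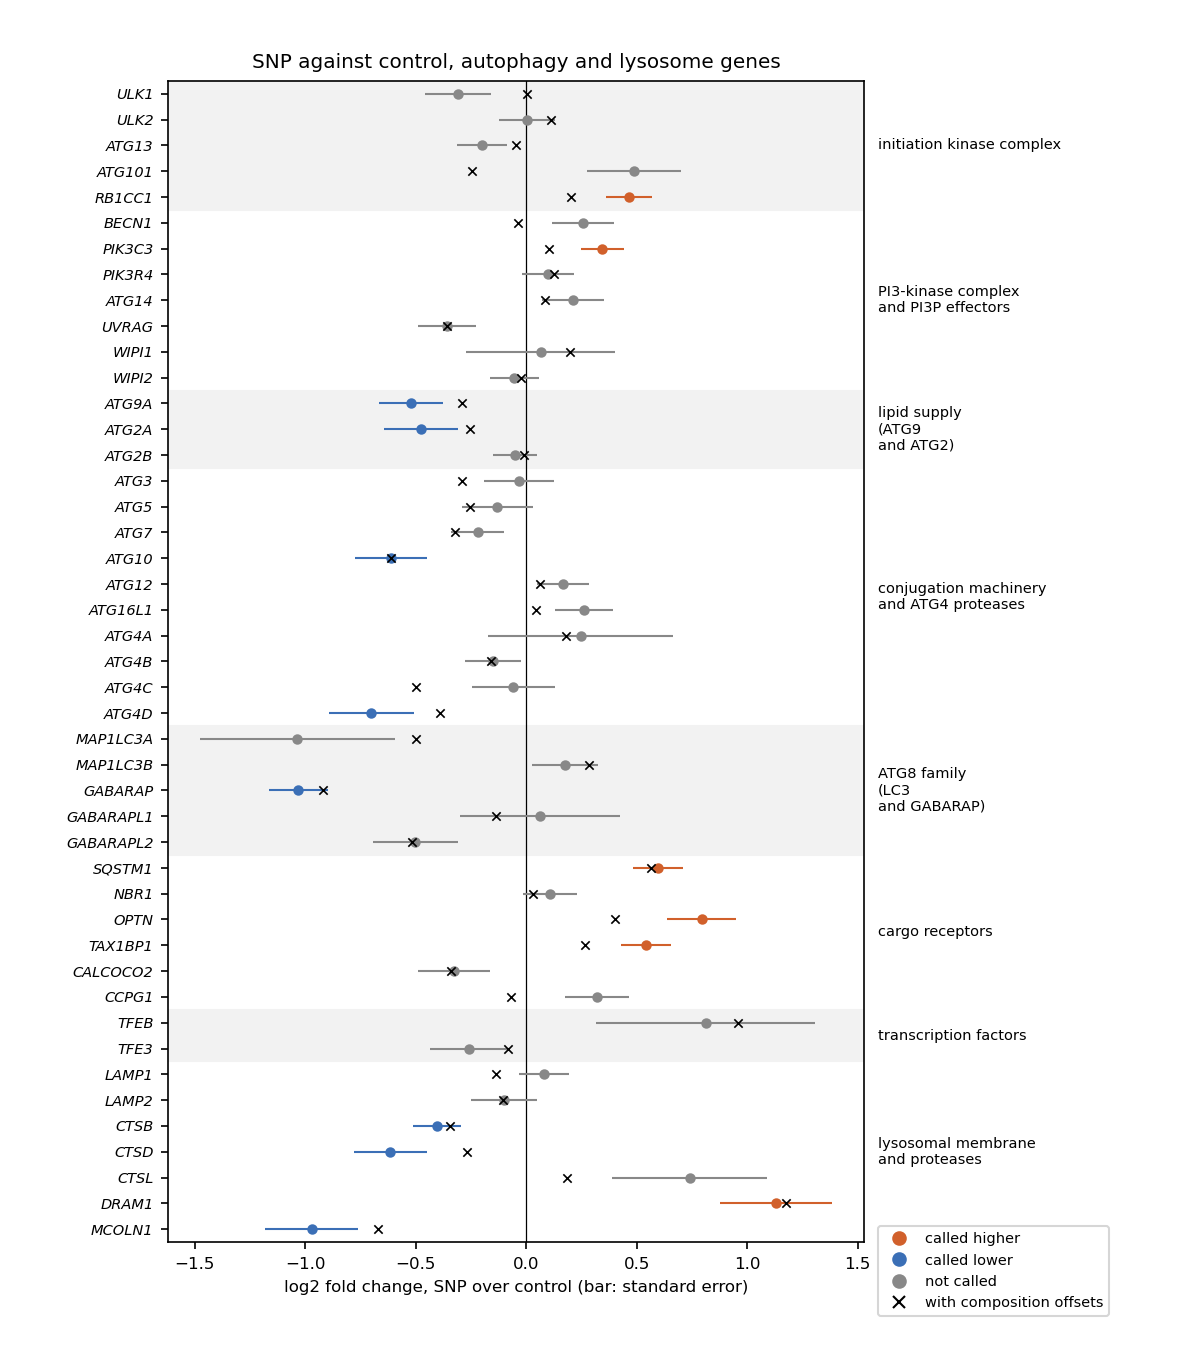
Log2 fold change of SNP over control for the 45 genes, grouped by role, with bars for the standard error (2 libraries per group). Crosses give the value with offsets on gene length and base composition. The extremes are DRAM1 at 1.13 on the right and MAP1LC3A at -1.04 and GABARAP at -1.03 on the left, and the called cargo receptor genes all lie to the right of 0.

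Levels of different genes were compared per transcript length, in TPM (length-scaled abundance that sums to 1000000 per library). In control cells GABARAP stood first at 143 ± 14.2 TPM (SD, n = 2), followed by RB1CC1 at 101 ± 6.99 TPM, GABARAPL2 at 83.5 ± 2.65 TPM and ATG13 at 69.0 ± 0.661 TPM. The first 3 overlapped no neighbour in the order, while ATG13 overlapped PIK3R4, the next lower gene, at 66.6 ± 8.03 TPM. TFEB was last, at 1.42 ± 0.743 TPM, below GABARAPL1 at 4.93 ± 1.73 TPM. Further down most neighbours could not be ordered, since the replicate values of 31 of 44 neighbouring pairs overlapped in control cells and those of 36 of 44 in SNP cells. In SNP cells RB1CC1 was first at 152 ± 7.43 TPM and TAX1BP1 was second at 99.6 ± 11.5 TPM. GABARAP was sixth by mean at 76.1 ± 9.56 TPM, and its replicate values overlapped those of its neighbours PIK3R4 and LAMP1. The median level of the 45 genes was 33.6 and 34.2 TPM in control and 36.7 and 34.6 TPM in SNP libraries, each a little above the median of all genes tested in the same library (28.9 to 32.0 TPM).

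**Figure D2:**
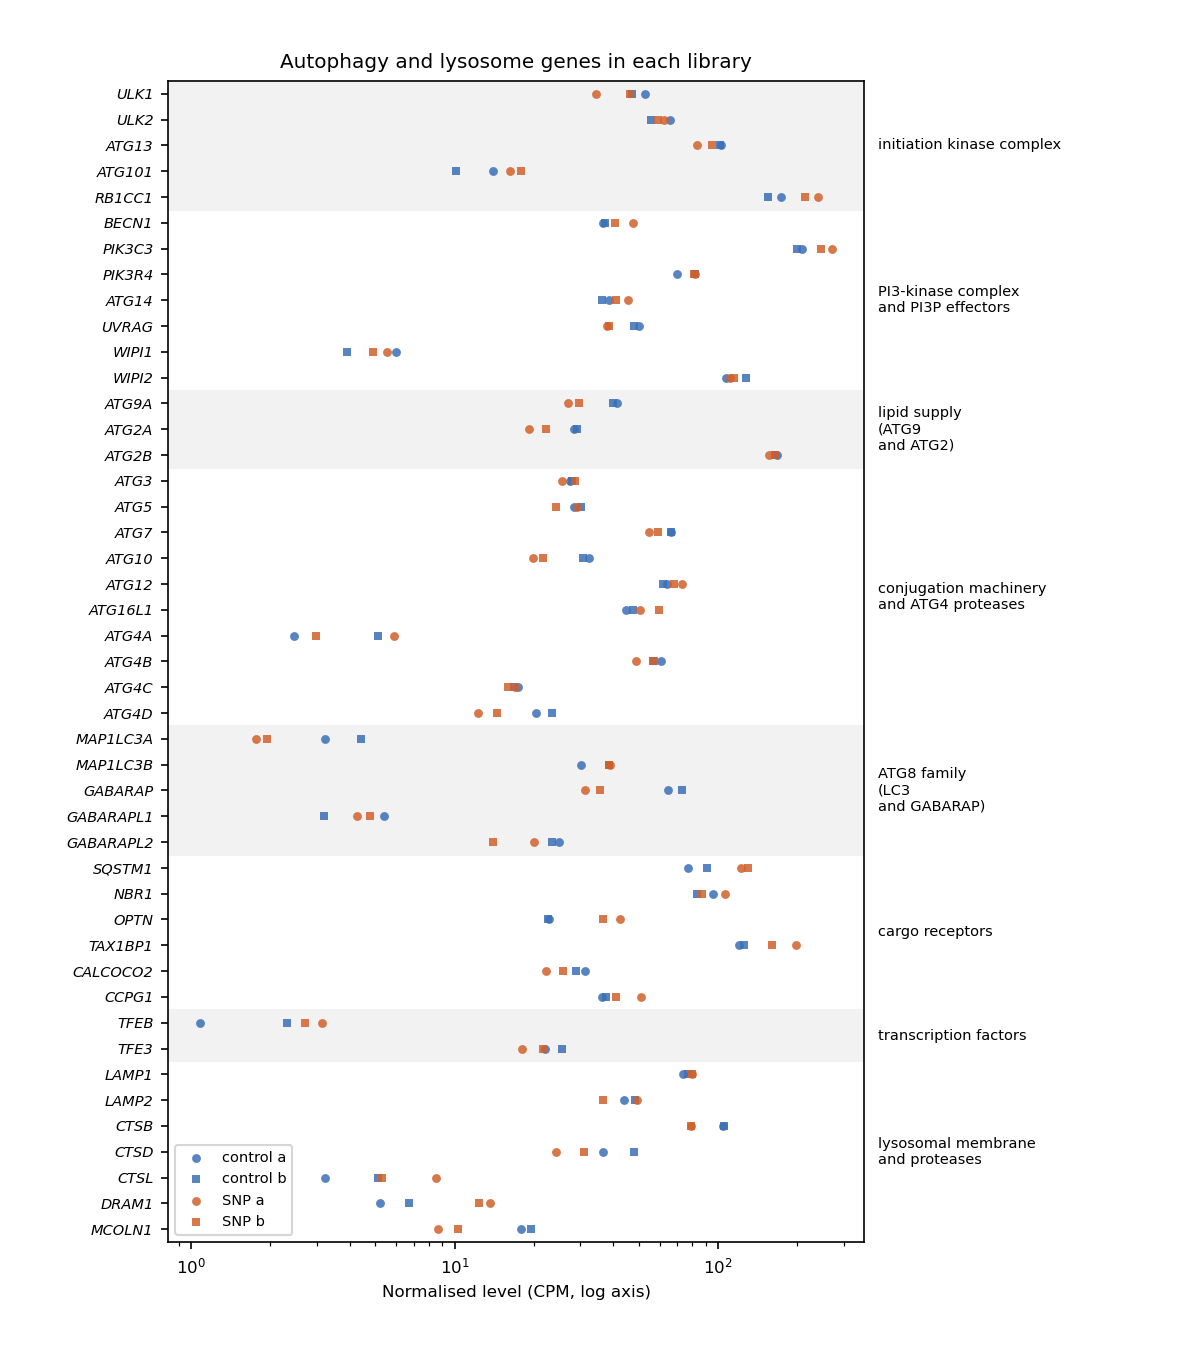
Normalised level (CPM, log axis) of each of the 45 genes in the 2 control libraries (blue) and the 2 SNP libraries (orange), with circles for replicate a and squares for replicate b. The blue and orange points of GABARAP, MCOLN1 and DRAM1 are clearly apart, and TFEB, MAP1LC3A and ATG4A are among the lowest.

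In the initiation complex, 1 of 5 genes was called. RB1CC1 encodes FIP200, the scaffold of the ULK1 complex. Its level was 174 and 154 CPM in control libraries and 240 and 214 CPM in SNP libraries. Both SNP values were above both control values, and the rise was 0.47 on the log2 scale (SE 0.10, edgeR adjusted p = 0.0021). Without control b the log2 fold change was 0.39 with an adjusted p of 0.059, so the call needed that library. ULK1 itself, the serine/threonine kinase that starts autophagy, stood at 53.1 and 47.1 CPM in control and 34.5 and 46.5 CPM in SNP libraries. SNP b lay just under control b, so the groups did not overlap in CPM, though they did in TPM; the log2 fold change was -0.31 (SE 0.15, edgeR adjusted p = 0.135), and it was -0.54 without SNP b, with an adjusted p of 0.0090. Its paralog ULK2 had a log2 fold change of 0.0031, ATG13, a regulatory subunit, -0.20, and ATG101, the partner of ATG13, 0.49, and none of them was called. ATG101 was called at 0.60 with offsets on gene length and GC content (adjusted p = 0.040), and stood at -0.24 once guanine minus cytosine was added to them (adjusted p = 0.436).

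Of the 7 genes of the class III PI3-kinase complex and its PI3P effectors, 1 was called. PIK3C3, which encodes the catalytic subunit VPS34, was measured at 209 and 199 CPM in control and 272 and 246 CPM in SNP libraries. All SNP values were above all control values, with a rise of 0.34 on the log2 scale (SE 0.098, edgeR adjusted p = 0.012). This call was lost without control a (log2 fold change 0.38, adjusted p = 0.061), without control b (0.31, adjusted p = 0.138) and without SNP a (0.27, adjusted p = 0.065), and with offsets on gene length and GC content (0.19, adjusted p = 0.062). BECN1, which encodes Beclin 1, a subunit that many regulators bind, had 36.6 and 37.4 CPM in control and 47.7 and 40.7 CPM in SNP libraries. The SNP values were the higher ones, but the log2 fold change of 0.26 (SE 0.14, edgeR adjusted p = 0.188) was not called. With the composition offsets (gene length, GC content and guanine minus cytosine) it was -0.036. PIK3R4, the VPS15 subunit, had a log2 fold change of 0.10, ATG14, which directs the complex to autophagosomes, 0.21, and UVRAG, which replaces ATG14 in the endosomal form of the complex, -0.36. UVRAG stood close to the threshold at an adjusted p of 0.051, and at 0.044 when genes needed a mean count of at least 50. The PI3P-binding proteins of the WIPI family showed values near 0, 0.066 for WIPI1 and -0.054 for WIPI2.

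Of the 3 lipid supply genes, 2 were called, both lower. ATG9A encodes a lipid scramblase carried on the vesicles that seed the autophagosome. It was at 41.4 and 39.8 CPM in control and 27.0 and 29.6 CPM in SNP libraries. The groups were apart, and the gene fell by 0.52 on the log2 scale (SE 0.15, edgeR adjusted p = 0.011). ATG2A, whose protein moves lipid from the endoplasmic reticulum into the growing membrane, had 28.5 and 29.2 CPM in control and 19.2 and 22.2 CPM in SNP libraries. It fell by 0.48 (SE 0.17, edgeR adjusted p = 0.039), while its paralog ATG2B, with 168 and 164 CPM in control and 156 and 165 CPM in SNP libraries, had a log2 fold change of -0.051 and overlapping groups. The call of ATG9A was lost without control a (-0.50, adjusted p = 0.097) or control b (-0.55, adjusted p = 0.054), and with DESeq2 its adjusted p was 0.053. That of ATG2A was lost without control a (-0.50, adjusted p = 0.135), control b (-0.46, adjusted p = 0.178) or SNP a (-0.37, adjusted p = 0.153), and its adjusted p was 0.149 with DESeq2, 0.056 without a count filter and 0.106 with the read totals that RPKM implies. ATG9A shares 1833 exonic bases with AC068946.2, a GENCODE 29 gene on the same strand that has no entry among the deposited genes. How reads from these bases were counted is not given, so the ATG9A count is uncertain.

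Among the 10 conjugation and ATG4 genes, 2 were called, both lower. ATG10 encodes the E2-like enzyme that transfers ATG12 to ATG5. Its level was 32.5 and 30.8 CPM in control and 19.8 and 21.6 CPM in SNP libraries, a clear gap between groups, and it fell by 0.61 on the log2 scale (SE 0.16, edgeR adjusted p = 0.0079). Without control a its log2 fold change was -0.58 and its adjusted p 0.071. RPS23, on the opposite strand, shares 374 exonic bases with ATG10, and whether the counting used strand is not given. RPS23 had 1162 to 1501 counts per library and was itself called lower (-0.49, edgeR adjusted p = 0.0031). The ATG10 count is therefore uncertain, and the part of RPS23 reads in its fall was not tested. ATG4D is 1 of 4 genes for the proteases that process ATG8 proteins. It had 20.3 and 23.4 CPM in control and 12.3 and 14.5 CPM in SNP libraries, and fell by 0.70 (SE 0.19, edgeR adjusted p = 0.0098). Its call was lost without control b (-0.60, adjusted p = 0.101) and with DESeq2 (adjusted p = 0.055). KRI1, on the opposite strand, shares 341 exonic bases with ATG4D and had 111 to 232 counts per library, so the ATG4D count is uncertain too. The other proteases were not called, with log2 fold changes of 0.25 for ATG4A, -0.15 for ATG4B and -0.058 for ATG4C.

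The remaining conjugation genes gave small values. ATG5, the acceptor of ATG12, was at 28.3 and 30.3 CPM in control and 29.1 and 24.3 CPM in SNP libraries. Its groups overlapped, and its log2 fold change was -0.13 (SE 0.16, edgeR adjusted p = 0.596). ATG12 itself had a log2 fold change of 0.17 and ATG16L1, which binds the ATG12-ATG5 conjugate, 0.26. ATG7, the E1-like enzyme that activates ATG12 and ATG8 proteins, had -0.22, and ATG3, the E2-like enzyme for ATG8 proteins, had -0.034. None of these 4 passed the test, and ATG16L1 did so without SNP a (0.38, adjusted p = 0.045).

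The ATG8 family showed the largest fall among the called genes. GABARAP (ENSG00000170296, minus strand, chr17:7240014-7242770, GENCODE 29 on GRCh38) had counts of 420 and 412 in the control libraries, against 250 and 277 in the deeper SNP libraries. Scaled for depth these were 64.6 and 73.0 CPM against 31.4 and 35.8 CPM. Both SNP values were below both control values, and the fitted SNP level was 0.489 times that of control, a fall of 1.03 on the log2 scale (SE 0.13, edgeR adjusted p = 1.2e-05). AC120057.2, a gene on the same strand that shares 691 exonic bases with GABARAP, had 42 counts in control b and 0 in the other libraries; for the sum of both genes the log2 fold change was -1.11 (edgeR adjusted p = 8.0e-06).

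MAP1LC3B, the LC3 gene whose protein is the usual marker of autophagosomes, was not called. It had 30.3 and 38.6 CPM in control and 38.9 and 38.7 CPM in SNP libraries. Control b lay just under the SNP values and control a well under them, and the log2 fold change was 0.18 (SE 0.15, edgeR adjusted p = 0.424). MAP1LC3B2, a near-identical copy, had 1 and 0 counts in control and 3 and 0 counts in SNP libraries, and how reads common to both copies were assigned is not given in the sources used here. GABARAPL2 was at 24.9 and 23.4 CPM in control and 20.1 and 14.0 CPM in SNP libraries. Its log2 fold change of -0.50 missed the threshold (SE 0.19, edgeR adjusted p = 0.058), and ranged from -0.79 to -0.26 when a library was left out. It was called with offsets on gene length and GC content (-0.54, adjusted p = 0.030). Once guanine minus cytosine was added to them it was not called (-0.52, adjusted p = 0.051). MAP1LC3A, with 3.23 and 4.43 CPM in control and 1.76 and 1.94 CPM in SNP libraries, had a log2 fold change of -1.04 that was not called at these counts of 14 to 25 (SE 0.44, edgeR adjusted p = 0.089). GABARAPL1 had 18 to 37 counts per library, overlapping groups and a log2 fold change of 0.064.

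Shares within the family were taken from the TPM values. Summed over the 5 genes, the family held 260 and 285 TPM in control and 190 and 187 TPM in SNP libraries. GABARAP made up 51.2% and 53.7% of that sum in control and 36.5% and 44.4% in SNP libraries (52.5% ± 1.78 against 40.4% ± 5.59, SD, n = 2). MAP1LC3B made up 10.2% and 12.1% in control and 19.3% and 20.4% in SNP libraries. For both genes the groups were apart, in opposite directions, while the share of GABARAPL2 overlapped at 32.9% and 28.6% against 38.8% and 28.8%. These shares carry no test, since an exact permutation test of 2 against 2 libraries cannot give a two-sided p below 0.333.

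**Figure D3:**
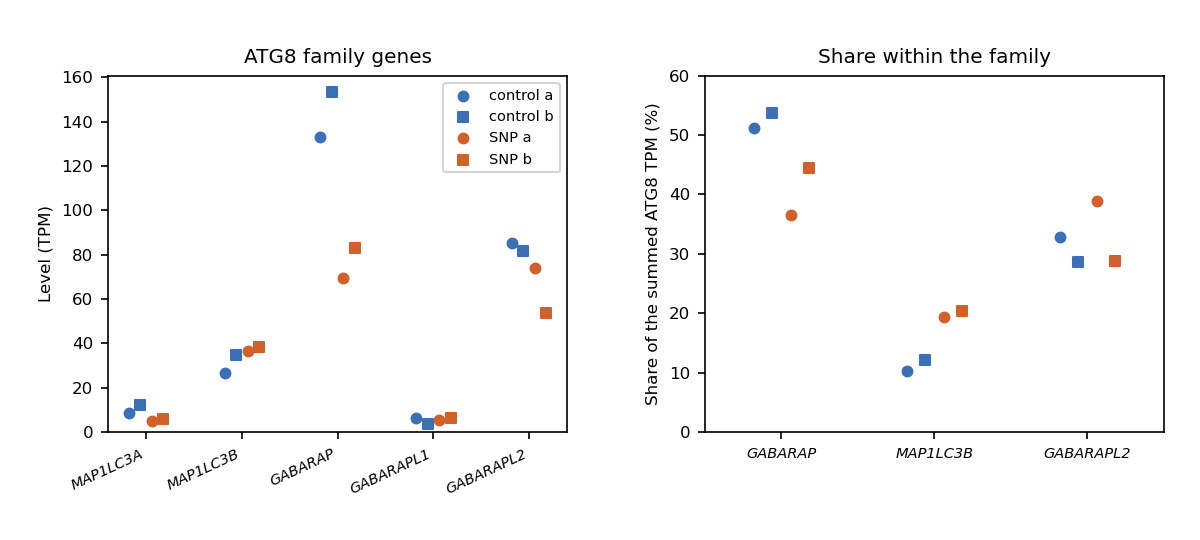
Levels of the 5 ATG8 genes (TPM, left) and the share of the summed family level held by 3 of them (percent, right), 1 point per library. GABARAP drops from above 130 TPM in both control libraries to 69.4 and 82.9 TPM in SNP libraries, while the points of MAP1LC3B stay between 26.6 and 38.2 TPM, so that its share is larger in both SNP libraries.

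Cargo receptor genes contributed 3 of the 6 rises. These proteins bind ubiquitin or organelle cargo on 1 side and ATG8 proteins on the other. SQSTM1 (ENSG00000161011, plus strand, chr5:179806398-179838078), which encodes p62, had 499 and 511 counts in the controls against 978 and 1004 counts after SNP, or 76.8 and 90.5 CPM against 123 and 130 CPM. OPTN (ENSG00000123240, plus strand, chr10:13099449-13138308), the receptor optineurin known for its part in mitophagy and in amyotrophic lateral sclerosis, was at 22.9 and 22.7 CPM in control and 42.3 and 36.7 CPM in SNP libraries. TAX1BP1 (ENSG00000106052, plus strand, chr7:27739331-27844564), a receptor for ubiquitinated protein, was at 120 and 126 CPM in control and 197 and 160 CPM in SNP libraries. In all 3 genes every SNP library was above every control library. The rises were 0.60 (SE 0.11, edgeR adjusted p = 5.5e-04) for SQSTM1, 0.79 (SE 0.16, edgeR adjusted p = 7.3e-04) for OPTN and 0.54 (SE 0.11, edgeR adjusted p = 0.0012) for TAX1BP1 on the log2 scale. With the composition offsets they were 0.57 (edgeR adjusted p = 0.0010), 0.40 (adjusted p = 0.044) and 0.27 (adjusted p = 0.044). All 3 were still called, OPTN and TAX1BP1 only just under the threshold. MRNIP, on the opposite strand, shares 1582 exonic bases with SQSTM1; whether the counting used strand is not given, and MRNIP had 297 to 373 counts per library and a log2 fold change of -0.23 that was not called.

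The other cargo receptor genes were not called. NBR1, a relative of SQSTM1, had a log2 fold change of 0.11, with overlapping groups. CALCOCO2, which encodes NDP52, a receptor for bacteria and damaged mitochondria, was at 31.2 and 28.9 CPM in control and 22.2 and 25.7 CPM in SNP libraries, with a log2 fold change of -0.33 (SE 0.16, edgeR adjusted p = 0.146). CCPG1, a receptor for the endoplasmic reticulum, had 36.3 and 37.5 CPM in control and 51.1 and 41.1 CPM in SNP libraries and a log2 fold change of 0.32 (SE 0.14, edgeR adjusted p = 0.106). Its result depended on how a read-through gene was treated. DNAAF4-CCPG1, annotated on the same strand with 3405 shared exonic bases, had 0 and 17 counts in control and 102 and 130 counts in SNP libraries. Added together, the 2 genes gave 36.3 and 40.6 CPM in control and 63.9 and 57.9 CPM in SNP libraries, and the sum was called with a log2 fold change of 0.67 (edgeR adjusted p = 8.0e-04). Without SNP b CCPG1 alone was also called (0.47, adjusted p = 0.016).

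Transcription factors TFEB and TFE3, which switch on many autophagy and lysosome genes when they enter the nucleus, showed no call. TFEB was barely counted, with 7 and 13 counts in control and 25 and 21 counts in SNP libraries (1.08 and 2.30 CPM against 3.14 and 2.71 CPM). The SNP values were higher, but the log2 fold change of 0.81 had an SE of 0.50 and was not called (edgeR adjusted p = 0.244). TFE3, with 143 to 168 counts per library, had a log2 fold change of -0.26. Control of these factors acts mainly through their phosphorylation and location, which RNA counts do not measure.

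Lysosomal genes were split. DRAM1 (ENSG00000136048, plus strand, chr12:101877351-102012130), a lysosomal membrane protein gene known as a p53 target, had 34 and 38 counts in control and 109 and 96 counts in SNP libraries, or 5.23 and 6.73 CPM against 13.7 and 12.4 CPM. The SNP level was 2.19 times that of control, the largest rise of the 45 genes at 1.13 on the log2 scale (SE 0.25, edgeR adjusted p = 0.0023). MCOLN1 (ENSG00000090674, plus strand, chr19:7522626-7534009), which encodes the lysosomal calcium channel TRPML1, went the other way. It had 116 and 110 counts in control and 69 and 80 counts in SNP libraries, or 17.8 and 19.5 CPM against 8.66 and 10.3 CPM, and fell by 0.97 on the log2 scale (SE 0.21, edgeR adjusted p = 0.0018). For both genes the groups were far apart relative to the distance between replicates.

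Both called cathepsin genes fell. CTSD, the aspartic protease of the lysosome, was at 36.8 and 48.2 CPM in control and 24.2 and 31.0 CPM in SNP libraries, and fell by 0.62 on the log2 scale (SE 0.17, edgeR adjusted p = 0.0087). The call was lost without control b (-0.41, adjusted p = 0.190) and without SNP a (-0.45, adjusted p = 0.059). AC068580.4, on the same strand with 1304 shared exonic bases, had 38 and 28 counts in control and 80 and 88 counts in SNP libraries. Summed with it, CTSD had 42.6 and 53.1 CPM in control and 34.3 and 42.4 CPM in SNP libraries, and the log2 fold change of -0.32 was not called (edgeR adjusted p = 0.125). CTSB, a cysteine protease gene, was at 104 and 105 CPM in control and 79.3 and 79.2 CPM in SNP libraries. Its replicates were nearly equal and it fell by 0.40 (SE 0.11, edgeR adjusted p = 0.0091), a call lost without control a (-0.41, adjusted p = 0.078) or control b (-0.40, adjusted p = 0.092), where 1 library had to stand for the group, and also lost with the read totals that RPKM implies (-0.33, adjusted p = 0.111). CTSL, another cysteine protease gene, had only 21 and 29 counts in control and 68 and 41 counts in SNP libraries; its log2 fold change of 0.74 was not called (SE 0.35, edgeR adjusted p = 0.127), and was 1.04 without SNP b (adjusted p = 0.048). The abundant membrane glycoprotein genes gave values near 0. LAMP1 had 74.0 and 76.9 CPM in control and 79.7 and 79.6 CPM in SNP libraries. Its log2 fold change was 0.080 (SE 0.11, edgeR adjusted p = 0.646), and -0.14 with the composition offsets. LAMP2 overlapped between groups, with a log2 fold change of -0.10.

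Promoter sequences were examined because TFEB and TFE3 bind the CLEAR element, an extended E-box. RefSeq promoters of GRCh38.p14, running from 250 bases before to 50 after the gene start, were found for 39 of the 45 genes; MAP1LC3A, UVRAG, CTSB, ATG4D, RB1CC1 and LAMP2 had no entry. The E-box core searched was CACGTG and the extended form TCACGTGA; each reads the same on both strands, and every extended match also holds the core. A gene was counted when any of its promoters held the motif. The core was present in 5 of the 39 genes (12.8%), against 12.5% of the 10416 tested genes in the table. The extended form was present in 3 of the 39 (7.69%), against 2.21% of the tested genes. Counted per promoter, the core was in 5 of the 48 promoters of these genes and in 7.26% of all 35116. The extended form was in 3 of the 48 and in 0.980% of all promoters. The 3 lysosomal genes with a core are shown, each on the strand of its gene, with the cores in capitals, because they combine the motif with a call in MCOLN1 and CTSD and none in LAMP1.
LAMP1: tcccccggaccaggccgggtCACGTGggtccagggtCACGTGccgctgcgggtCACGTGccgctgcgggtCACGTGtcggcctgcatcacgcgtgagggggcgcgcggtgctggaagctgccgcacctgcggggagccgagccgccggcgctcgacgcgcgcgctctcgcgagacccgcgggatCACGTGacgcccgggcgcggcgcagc
MCOLN1: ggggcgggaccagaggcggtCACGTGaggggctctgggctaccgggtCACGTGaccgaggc
CTSD: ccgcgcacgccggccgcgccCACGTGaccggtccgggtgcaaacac
The LAMP1 stretch is chr13:113297027-113297236 on the plus strand and holds 5 of its 6 cores, 4 in a tight run and 1 in the extended form; the sixth spans the gene start. That of MCOLN1 is chr19:7522563-7522623 on the plus strand, with both cores in the extended form. That of CTSD is chr11:1763949-1763994 on the minus strand and holds a core only. ATG14 and ATG3 also had cores, 1 and 2 of them. LAMP1, with the most cores, had a log2 fold change of 0.080 (-0.14 with the composition offsets), and MCOLN1 was called lower with and without those offsets. CTSD was called lower without them only, at -0.62 against -0.27. A match of these letters is a description and not a measured binding site.

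**Figure D4:**
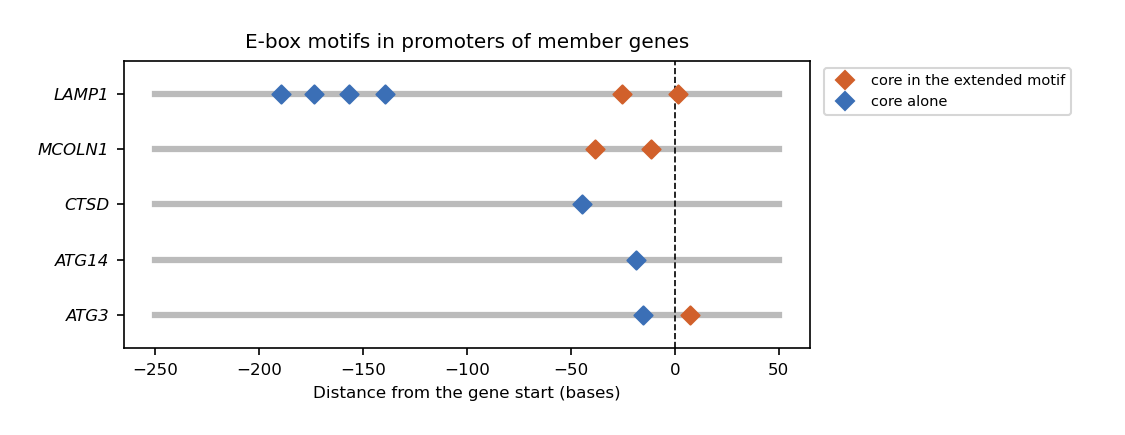
Position of each E-box core relative to the gene start (dashed line, bases) in the RefSeq promoters of the 5 genes that hold one, with orange for a core inside the extended form and blue for a core alone. LAMP1 has 6 cores, MCOLN1 and ATG3 have 2 each, and CTSD and ATG14 have 1 each.

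The log2 fold changes followed the base composition of the transcripts, for these genes as for all genes. Base composition is given here as the guanine share minus the cytosine share of a gene's annotated transcripts, in percentage points. Over the 45 genes, which share the same 4 libraries and are not replicates, its Spearman correlation with the log2 fold change was 0.60 (Pearson 0.60). Over the 14724 tested genes with a value it was 0.48. Between replicates the Spearman correlation over the 45 genes was -0.24 for control b over control a and -0.46 for SNP b over SNP a. The median was 2.85 points in the 6 genes called higher, -2.12 in the 8 called lower and 1.10 in the 31 not called. Among all genes tested, the median log2 fold change was -0.43 in the lowest and 0.39 in the highest of 10 bins of equal size by this measure.

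With per-library offsets on gene length, GC content and guanine minus cytosine, 4 of the 45 genes were called higher (SQSTM1, OPTN, TAX1BP1 and DRAM1) and 6 lower, against a background of 18.9% called, 8.45% higher and 10.4% lower. The correlation over the 45 genes was then 0.17, a fall built into offsets that are fitted on the same measure. Whether the trend is technical or an effect of SNP was not tested, and the offsets would lessen either. GABARAP at 0.80 points, DRAM1 at 0.33 points and ATG10 at 0.83 points kept their calls with log2 fold changes of -0.92, 1.17 and -0.61. MCOLN1 and CTSB stayed called at -0.67 and -0.34. RB1CC1 at 0.20 (edgeR adjusted p = 0.067), PIK3C3 at 0.10 (adjusted p = 0.312), ATG9A at -0.29 (adjusted p = 0.115), ATG2A at -0.26 (adjusted p = 0.219), ATG4D at -0.39 (adjusted p = 0.113) and CTSD at -0.27 (adjusted p = 0.194) were no longer called. UVRAG and ATG7, not called without offsets, were called lower at -0.36 and -0.32. VGLL4, on the opposite strand, shares 1596 exonic bases with ATG7 and had 646 to 883 counts per library. As the use of strand is not given, the ATG7 count is uncertain.

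**Figure D5:**
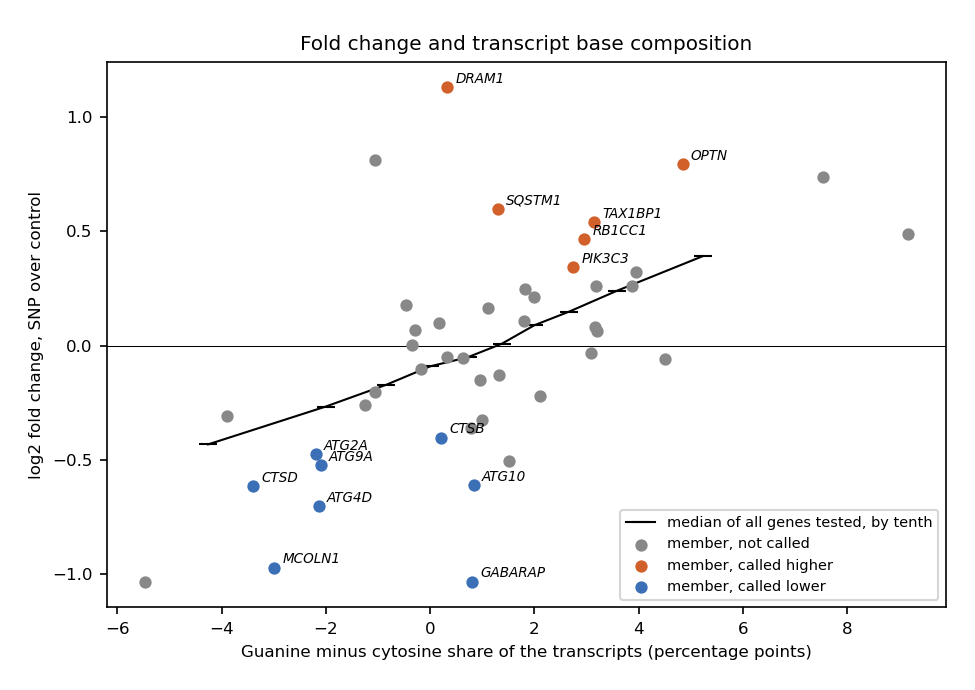
Log2 fold change of each of the 45 genes against the guanine minus cytosine share of its transcripts (percentage points), with the called genes named and the black line giving the median of all genes tested in 10 bins of that share. The line climbs from -0.43 to 0.39; DRAM1 and SQSTM1 lie well above it and GABARAP, ATG10 and MCOLN1 well below it, while RB1CC1, PIK3C3 and ATG2A lie nearer to it.

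Further genes of the same pathway were taken from 7 lists that hold 146 genes, of which 141 were tested. There 31 genes were called, 12 higher and 19 lower, with a median log2 fold change of -0.043, beside the background of 26.2% given above. With the composition offsets 9 were higher and 15 lower.

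Lysosomal hydrolases and their activators had 2 higher and 7 lower calls among 38 tested, a share of 23.7% that is under the background, with a median of -0.22. CTSV, a cysteine protease gene related to CTSL, was at 5.85 and 5.84 CPM in control and 16.6 and 17.2 CPM in SNP libraries, a rise of 1.53 on the log2 scale (SE 0.23, edgeR adjusted p = 6.6e-05). PSAP, the precursor of the saposins that help degrade sphingolipids, rose by 0.50 (edgeR adjusted p = 0.0011), a call lost without control a (0.40, adjusted p = 0.057). SMPD1, acid sphingomyelinase, had 12.0 and 9.03 CPM in control and 4.77 and 6.33 CPM in SNP libraries. It fell by 0.93 (edgeR adjusted p = 0.017), and the call was lost without control a (-0.71, adjusted p = 0.190) or SNP a (-0.74, adjusted p = 0.098). ARSB, arylsulfatase B, was at 77.8 and 75.1 CPM in control and 46.3 and 47.6 CPM in SNP libraries and fell by 0.70 (SE 0.12, edgeR adjusted p = 2.0e-04).

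Of the 18 subunits and accessory genes of the V-ATPase, the proton pump that acidifies lysosomes, 2 rose and 2 fell, with a median of -0.036. ATP6V1G1 rose by 0.73 (edgeR adjusted p = 0.0027) and ATP6AP2 by 0.57 (edgeR adjusted p = 0.0097). ATP6V0B fell by 0.74 (edgeR adjusted p = 0.014) and ATP6V0A1 by 0.42 (edgeR adjusted p = 0.011). Apart from ATP6V1G1, each of these calls was lost when 1 of 2 libraries was left out. ATP6AP2 was not called without control b (0.50, adjusted p = 0.090) or SNP a (0.39, adjusted p = 0.097), ATP6V0B without control b (-0.43, adjusted p = 0.30) or SNP a (-0.59, adjusted p = 0.066), and ATP6V0A1 without control a (-0.27, adjusted p = 0.288) or SNP a (-0.33, adjusted p = 0.059).

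Lysosomal membrane and trafficking genes had 2 higher and 4 lower calls among 17. CLN3, the gene of juvenile Batten disease, was at 23.4 and 22.7 CPM in control and 11.8 and 13.2 CPM in SNP libraries and fell by 0.88 (SE 0.19, edgeR adjusted p = 0.0015). TMEM175, a lysosomal potassium channel gene, fell by 0.79 (edgeR adjusted p = 0.021), a call lost without control a (-0.56, adjusted p = 0.251) or SNP a (-0.67, adjusted p = 0.086). IGF2R, the cation-independent mannose 6-phosphate receptor that carries hydrolases to lysosomes, rose by 0.35 (edgeR adjusted p = 0.0074), and was not called without control a (0.32, adjusted p = 0.091). GNPTAB, which makes the mannose 6-phosphate tag, rose by 0.39 (edgeR adjusted p = 0.038) and was called in none of the 4 fits that left out a library, where its adjusted p was 0.165 without control a, 0.235 without control b, 0.058 without SNP a and 0.059 without SNP b.

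Genes of mTORC1, the kinase complex that restrains autophagy when nutrients are present, and of its AMPK, Ragulator and Rag partners had 2 higher and 2 lower calls among 24. LAMTOR3, a subunit of the Ragulator that anchors mTORC1 to lysosomes, was at 21.4 and 29.4 CPM in control and 53.2 and 40.8 CPM in SNP libraries and rose by 0.90 (SE 0.17, edgeR adjusted p = 5.5e-04). FNIP1, a partner of folliculin, rose by 0.40 (edgeR adjusted p = 0.0087), and was not called without control a (0.38, adjusted p = 0.109) or control b (0.42, adjusted p = 0.065). MLST8, a core mTORC1 subunit, had 29.8 and 34.7 CPM in control and 16.9 and 20.8 CPM in SNP libraries and fell by 0.77 (SE 0.17, edgeR adjusted p = 0.0022). RRAGA, a Rag GTPase gene, fell by 0.59 (edgeR adjusted p = 0.036), and was not called without control b (-0.41, adjusted p = 0.313) or SNP a (-0.40, adjusted p = 0.196).

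Selective autophagy genes outside the 45 had 3 higher and 3 lower calls among 17. CALCOCO1, a receptor for the endoplasmic reticulum and Golgi related to CALCOCO2, was at 22.2 and 24.4 CPM in control and 41.1 and 37.6 CPM in SNP libraries and rose by 0.76 (SE 0.15, edgeR adjusted p = 0.0010). TBK1, the kinase that phosphorylates OPTN and SQSTM1 protein, was at 41.4 and 41.1 CPM in control and 64.4 and 61.7 CPM in SNP libraries and rose by 0.61 (SE 0.13, edgeR adjusted p = 0.0011). Both stayed called under the composition offsets. BNIP3, a mitophagy receptor gene, fell by 0.55 (edgeR adjusted p = 0.0071), a call lost without control b (-0.32, adjusted p = 0.255). RTN3, a receptor for endoplasmic reticulum tubules, fell by 0.41 (edgeR adjusted p = 0.0034). Of the 14 autophagosome fusion genes tested YKT6, a SNARE gene, was the single call. It rose by 0.46 (edgeR adjusted p = 0.0037), and had an adjusted p of 0.063 without control a. Of the 13 other core genes AMBRA1, a Beclin 1 regulator, was the single call. It fell by 0.39 (edgeR adjusted p = 0.010), and had an adjusted p of 0.074 without control a and 0.097 without control b.

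Some of the calls named from these lists depended on the fit. DESeq2 did not call ATP6V0B, SMPD1, TMEM175, GNPTAB or RRAGA. The read totals that RPKM implies ended the calls of ATP6V0A1, RRAGA, RTN3 and AMBRA1. The composition offsets ended those of ATP6V1G1, ATP6AP2, ATP6V0A1, PSAP, SMPD1, TMEM175, GNPTAB, RRAGA, YKT6, RTN3 and AMBRA1. CTSV, ARSB, CLN3, MLST8, LAMTOR3, CALCOCO1 and TBK1 were called under all of these and without each library in turn.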

How the data were processed

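RNA of 4 SH-SY5Y libraries (2 control, 2 SNP, grouped by their labelled agent) was analysed from 1 gene table per library. Per the file headers, the authors deposited whole-number read counts per gene, TPM and RPKM; the counts carry no normalization, the deposited TPM sums to 1000000 in each library, and the deposited RPKM is scaled to a read total larger than the sum of the counts (48.7 M to 62.0 M reads implied). The build is GRCh38, per the submitters' processing notes; the aligner, the counter and its use of strand are not given in the sources used here. Per the labels, 75 bp reads were sequenced at 40 M reads per library. Positions, exon overlaps and base composition were taken from GENCODE 29, which held 57980 of the 58243 gene identifiers.

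Counts were tested with edgeR 4.0.16 (quasi-likelihood, TMM scaling, minimum count 10 and minimum total 15, Benjamini-Hochberg adjustment, threshold 0.05) in R 4.3.3, and CPM values are TMM-scaled; the script was tested on simulated data. Alternatives used DESeq2 1.42.0, limma-voom 3.58.1, other filters and scalings, per-library offsets from lowess curves (span 0.5) on gene length, GC content and guanine minus cytosine, a replicate block, and fits without each library. A fit that adds same-strand overlapping genes (at least 500 shared exonic bases) to a gene was chosen after seeing the data. The genes, roles and lists were chosen with earlier results of these data known. Full statistics were given, by role, for up to 4 called genes with non-overlapping groups and the largest change, for ULK1, BECN1, ATG5, MAP1LC3B, SQSTM1, TFEB, LAMP1 and CTSD in any case, and for up to 2 rises and 2 falls in each pathway list; other genes given in full were chosen after their values were seen. Comparison of the ATG8 proteins by sequence was planned and not run.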

Additional observations from a re-analysis of the deposited data

How the results depend on the processing

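With 2 libraries per group, a fit that leaves 1 out rests on a single library whose spread is assumed to equal that of the other group. The share called over all genes is not given for such fits. Over those 4 fits the genes called ranged from 2447 to 4144, the calls among the 45 genes from 7 to 17, the higher ones from 4 to 8 and the lower ones from 3 to 9, and the median log2 fold change from -0.067 to -0.0030. In the pathway lists the higher calls ranged from 7 to 14 and the lower ones from 9 to 26. The fewest calls among the 45 genes, 7, came without control b, and 9 without control a.

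DESeq2's Wald test called 2415 genes, or 16.4% of those tested. It called 6 of the 45 higher and 5 lower, and 11 of the pathway lists higher and 12 lower. An adjusted p under 0.01 left 2224 genes, 5 of the 45 higher and 6 lower, and 11 higher and 7 lower in the lists. Genes without exonic overlap gave 2018 calls, 21 of the 45 genes tested with 4 called (2 higher, 2 lower), a median of -0.063 and 8 higher and 11 lower in the lists. The share called over all genes of that fit is not given, so these counts have no background beside them. The median was -0.050 with a mean count of at least 50, -0.017 with length and GC offsets and -0.068 with guanine minus cytosine added. With those offsets ULK1, BECN1 and LAMP1 changed sign, to 0.0051, -0.036 and -0.14. Read totals implied by RPKM moved the median of all genes to 0.064 and that of the 45 to 0.033, and 63.1% of calls were then higher against 51.9% with TMM.

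Whether the letters a and b pair the libraries is not known, and 2 pairs cannot settle it. The a-minus-b deviations of control and SNP correlated at 0.050 across genes. With the replicate block 4487 of the 14759 genes tested were called, 2314 of them higher, against 3861 called without it. Of the 45 genes, 6 were then higher and 10 lower. With the replicate block and offsets the medians were -0.017 (length and GC) and -0.069 (with guanine minus cytosine), and ULK1, BECN1 and LAMP1 were at 0.0069, -0.036 and -0.14. For the 20 genes fully described by rule, 367 results under the alternatives were set against the main fit. Of these 319 kept direction and call, 6 changed sign, 41 lost a call and 1 (ULK1) gained it. The 367 include the threshold of 0.01, which repeats the log2 fold changes of the main fit and can only remove calls. There PIK3C3, ATG9A and ATG2A lost theirs. Outside those 20, ATG101, UVRAG, ATG7, ATG16L1, GABARAPL2, CCPG1 and CTSL gained a call in 1 or more fits. Non-overlapping groups numbered 32 in CPM (16 above, 16 below) and in TPM (20 above, 12 below). Before the gene start alone, 5 genes held the core and 2, not 3, the extended motif, ATG3 dropping out.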
